A study of Mus musculus with 9 samples.

Results

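Binding of the homeodomain proteins Hoxa11 and Hoxa13 was compared in whole limb buds of wild-type ICR mouse embryos at E11.5 (E, embryonic day), by chromatin immunoprecipitation followed by sequencing (ChIP-seq). A Hoxa11 site was an interval found in both Hoxa11 libraries: peaks of replicate 1 and replicate 2 that shared at least 1 bp were merged, which gave 1023 sites from 2953 and 1647 peaks. These were set against the 143460 peaks of the single Hoxa13 library of the same stage. The series holds 9 libraries, 4 of them input DNA, and its Hoxa13 libraries of E11.0 and E12.5 enter no comparison here. Home-made antibodies were used, 10 µg against Hoxa13 and 8 µg against Hoxa11. All 3 libraries were made from wild-type tissue with no transgene or treatment. Each immunoprecipitation at E11.5 used the limb buds of 1 litter, so every library pools embryos, and proximal and distal cells of the bud are mixed in it. The titles pair Hoxa13 and Hoxa11 replicate 1 with the same input library, and Hoxa11 replicate 2 with another.

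Hoxa11 and Hoxa13 are neighbouring genes of the HoxA cluster. Hox proteins of the posterior groups bind AT-rich DNA through the homeodomain and pattern the limb from shoulder to digit. Hoxa11 is needed for the forearm and lower leg and is expressed more proximally, while Hoxa13 is needed for the hand and foot, is expressed distally and takes part in shutting down Hoxa11 in the digit domain. Bulk limb buds cannot show whether both proteins sit on the same DNA molecule: a site found with both antibodies may be bound in different cells. Fewer bound cells and weaker binding per cell cannot be told apart either.

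Hoxa13 peaks lay at most Hoxa11 sites, while few Hoxa13 peaks lay at a Hoxa11 site. Of the 1023 sites, 810 met a Hoxa13 peak by at least 1 bp (79.2%, exact Clopper-Pearson 95% interval 76.6 to 81.6) and 213 did not. From the other side, 851 of 143460 Hoxa13 peaks met a Hoxa11 site (0.593%, 0.554 to 0.634). The list sizes keep this share low, since 1023 sites, most shared ones with a single Hoxa13 peak, were set against 143460 peaks. Hoxa13 peaks covered 1.74% of the 2577 Mb spanned by them on chromosomes 1 to 19 and X. That is a share of sequence, not the share of sites that would meet a peak by chance, which was not measured. The replicates taken alone gave shares close to each other, 71.0% of the peaks of replicate 1 (69.4 to 72.7) and 70.8% of replicate 2 (68.5 to 72.98). The share was therefore higher for sites of both replicates than in either list, by more than the replicates differed. With replicate 1 alone in place of the sites, 1.46% of Hoxa13 peaks were met, and with replicate 2 alone 0.803%. Intervals cover counting error over peaks only. Since there was 1 Hoxa13 library, no test across samples was possible and no p-value is given.

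Between chromosomes the share varied little beyond counting error. On chromosomes 1 to 19, 725 of 907 sites met Hoxa13 (79.9%, 77.2 to 82.5), with a median over chromosomes of 80.0% and a range from 70.6% on chromosome 17 (12 of 17 sites) to 90.5% on chromosome 8 (38 of 42). On chromosome X 63 of 86 sites did (73.3%, 62.6 to 82.2), and on unplaced, Y and mitochondrial sequence 22 of 30 (73.3%, 54.1 to 87.7). The intervals of these groups overlapped. Chromosome X stood apart in another way: 81 of its 86 sites fell in 4 windows of 1 Mb.

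Sites with a higher score in Hoxa11 replicate 2 met Hoxa13 more often. This score, from the authors' peak caller, exists for that list only. Over 5 equal classes of the score, from lowest to highest, the shares were 74.0% (67.4 to 79.9), 72.7% (66.0 to 78.7), 76.5% (70.0 to 82.1), 83.4% (77.6 to 88.2) and 89.3% (84.2 to 93.2). The lower 3 classes overlapped in their intervals, and the highest lay above them. Sites also widened along the score, from a median of 382 bp in the lowest class to 609 bp in the highest, and a wider site is easier to meet. The part of width in the order was not tested. When the middle of the site had to lie inside the Hoxa13 peak, the lowest class gave 71.6% and the highest 84.9%. Fold enrichment, also the authors' value, pointed the same way in the whole replicate 2 list. The 1166 peaks with Hoxa13 had a median fold of 4.05 (quartiles 3.46 to 4.99) and the 481 without had 3.43 (2.86 to 4.05), so both groups overlapped widely. Among peaks also found in replicate 1, the medians were 4.34 and 3.59.

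**Figure D1:**
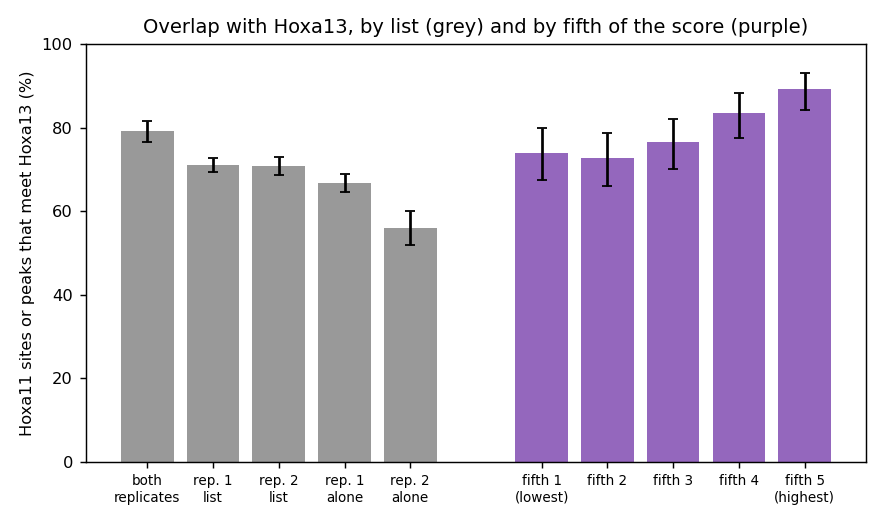
Percentage of Hoxa11 sites or peaks that met a Hoxa13 peak by at least 1 bp. Grey bars show the sites of both replicates, each replicate's list and the peaks found in that replicate alone, purple bars show the sites in 5 equal classes of the authors' replicate 2 score, and error bars are exact 95% binomial intervals. The share was 79.2% for sites of both replicates and 55.9% for peaks of replicate 2 alone, and it was 89.3% in the highest score class.

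Where the proteins shared a site, their peaks largely coincided. The overlap had a median of 387.5 bp (quartiles 301 to 541.75) and covered a median of 96.3% of the Hoxa11 site and 81.0% of the Hoxa13 peak. The Hoxa11 site lay wholly inside the Hoxa13 peak in 339 of 810 cases (41.9%), the Hoxa13 peak lay inside the site in 137 (16.9%), and 334 overlapped in part (41.2%). A single Hoxa13 peak covered 770 sites, 32 sites had 2 and 8 had 3 or more, up to 4. The replicate 2 summit, the position of highest signal, fell inside the Hoxa13 peak at 774 of the 810 sites (95.6%). Few sites depended on the threshold of 1 bp. The smallest overlaps were 37, 56, 99, 149 and 173 bp, and the smallest gaps at sites counted as separate were 25, 70, 78, 91 and 99 bp.

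The middle of the Hoxa13 peak lay as close to replicate 1 as the Hoxa11 replicates lay to each other, and somewhat farther from replicate 2. This was measured at the 739 shared sites with exactly 1 peak in each list. Replicate 1 and replicate 2 middles were a median of 45.5 bp apart (quartiles 20.5 to 89.75). Hoxa13 was 46.0 bp from replicate 1 (19.75 to 99.5), with which it shares an input library, and 53.5 bp from replicate 2 (23.75 to 106.25), which has another. The part of the input in this difference was not tested. From the replicate 2 summit the median was 56.5 bp, and the summit itself lay a median of 29.5 bp from the middle of its own peak. Distances of 100 bp or less made up 78.5% between the replicates, 75.1% for Hoxa13 and replicate 1 and 72.9% for Hoxa13 and replicate 2. The protocol sheared chromatin to fragments of 200 to 1000 bp, so these offsets are smaller than a fragment. Overlap itself bounds the distance: peaks that touch can be at most the mean of their widths apart, a median of 450 bp for Hoxa13 and replicate 1. As a share of that bound, the median distance was 10.1% for Hoxa13 and replicate 1, 12.6% for Hoxa13 and replicate 2 and 12.4% for the replicates.

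By genome coordinate the offsets were even. Relative to the replicate 2 middle, the Hoxa13 middle lay at the lower coordinate at 374 sites and at the higher coordinate at 364. The signed median was −1 bp. Sites were not oriented by sequence or strand, so these counts cannot show whether a side of the bound sequence was favoured. At 329 of the 739 sites (44.5%) Hoxa13 lay nearer to replicate 2 than replicate 1 did, and at 404 it lay farther. Farther offsets were somewhat more frequent for Hoxa13: the distance that 90% of sites stayed within was 148.2 bp between replicates, 168.2 bp to replicate 1 and 197.8 bp to replicate 2. Hoxa13 peaks were the widest at these sites, with a median of 499 bp against 375 bp in replicate 1 and 323 bp in replicate 2, and the part of width in the longer offsets was not tested. Over 4 score classes from low to high, the median distance from the replicate 2 middle to Hoxa13 was 62.5, 54.0, 46.5 and 48.5 bp, while the replicates were 49.5, 46.75, 41.5 and 43.5 bp apart.

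**Figure D2:**
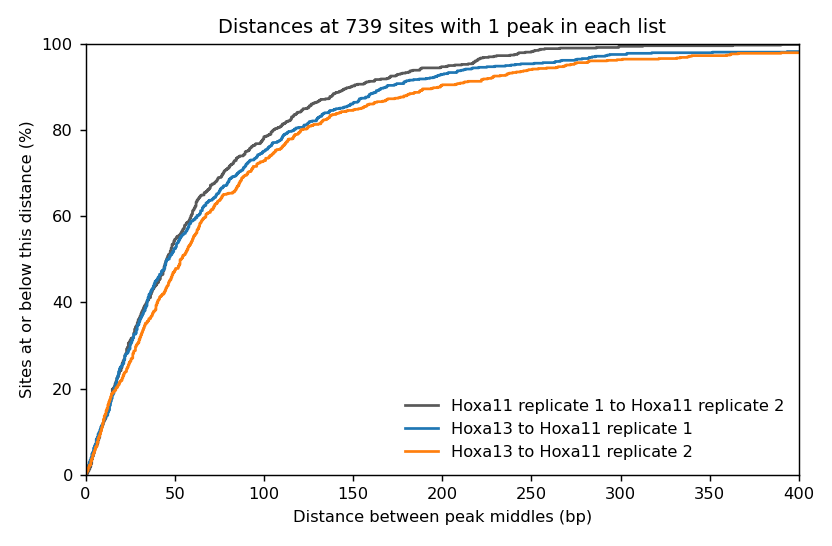
Cumulative share of the 739 sites with 1 peak in each list, against the distance in bp between peak middles. Lines show Hoxa11 replicate 1 to replicate 2 (grey), Hoxa13 to replicate 1 (blue) and Hoxa13 to replicate 2 (orange), whose medians were 45.5, 46.0 and 53.5 bp and whose shares at 50 bp or less were 54.7%, 52.5% and 47.5%.

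Among shared sites on chromosomes 1 to 19, the 10 of highest fold enrichment ranged from 11.6 to 17.7. The site on chromosome 3 from 80850494 to 80851753 (15.3-fold) carried 3 Hoxa13 peaks and had 23 Hoxa13 peaks within 50 kb. On chromosome 7 from 57260837 to 57261266 (12.96-fold) the summit lay 10.5 bp from the Hoxa13 middle, and on chromosome 9 from 29126172 to 29126784 (16.6-fold) it lay 9 bp away. The site on chromosome 5 from 147378811 to 147379703 (12.6-fold) had its Hoxa13 peak as the only one within 10 kb. Sites on chromosome 16 from 62468496 to 62469145 (12.6-fold) and from 78069634 to 78070172 had 8 and 20 Hoxa13 peaks within 50 kb. At the site on chromosome 2 from 171458966 to 171459773 (12.3-fold), the summit was 287 bp from the Hoxa13 middle, although the middle of the site was 51.0 bp away. These 10 strongest shared sites thus lay both in sparse and in crowded Hoxa13 surroundings, with 5 to 23 Hoxa13 peaks within 50 kb. Over all shared sites on chromosomes 1 to 19 and X the median was 9 (quartiles 6 to 13).

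The 213 sites without Hoxa13 lay at a wide range of distances from it. The gap to the nearest Hoxa13 peak could be measured at 212 of them, since 1 lay on a sequence with no Hoxa13 peak. Its median was 5.45 kb (quartiles 1.26 to 17.8 kb), with 50 sites (23.6%) within 1 kb, 135 (63.7%) within 10 kb and 200 (94.3%) within 100 kb. Neighbouring Hoxa13 peaks were themselves a median of 10.0 kb apart on chromosomes 1 to 19 and X. Gaps from random positions were not measured, so these shares do not show that the sites lay closer to Hoxa13 than other sequence. The separate sites were narrower than shared ones, with a median of 343 bp against 457.5 bp. Their fold enrichment in replicate 2 had a median of 3.60 (2.94 to 4.38) against 4.36 (3.65 to 5.46), with overlapping ranges. The replicate middles were a median of 34.5 bp apart at these narrower sites and 49.5 bp at shared ones.

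The separate site of highest fold lay on chromosome 10 from 98633049 to 98634126 (15.8-fold), with the nearest Hoxa13 peak 17.5 kb away and 8 within 50 kb. On chromosome 4, the site from 24765690 to 24766077 (9.20-fold) was 47.7 kb from Hoxa13, and that from 116862383 to 116862931 (7.13-fold) was 11.65 kb from it. Others came close without touching. The site on chromosome 12 from 103765291 to 103765738 (9.46-fold) ended 460 bp from a Hoxa13 peak, and that on the same chromosome from 31711447 to 31711814 (6.34-fold) 216 bp from one. The remaining sites of this group were 6.39-fold to 7.54-fold enriched, apart by 1.06 to 9.89 kb. The farthest of all sites on chromosomes 1 to 19 lay on chromosome 6 from 114497921 to 114498251 (2.81-fold), with 125.6 kb to the nearest Hoxa13 peak.

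Of the 213 sites without Hoxa13, 155 lay outside windows with 5 or more Hoxa11 sites and 58 inside. Of the 810 shared sites, 668 lay outside and 142 inside, and over all 1023 sites 823 lay outside. A few windows held many sites without Hoxa13. The window of chromosome X from 92000001 to 93000000 held 14 of them within 46.3 kb, at folds of 2.05 to 3.03. Hoxa13 peaks lay close by: every gap was between 0.078 and 0.994 kb, and a median of 30 Hoxa13 peaks lay within 50 kb of each site. Chromosome 12 from 55000001 to 56000000 held 10 sites, none shared, with gaps of 0.279 to 63.03 kb. Chromosome 6 from 114000001 to 115000000 held 7 within 122.3 kb, 13 Hoxa13 peaks fell in that whole window, and replicate 1 had 33 peaks there against 10 in replicate 2. The window of chromosome 3 from 96000001 held 6, and that of chromosome X from 120000001 held 5 within 29.0 kb beside 18 shared sites. Shared sites crowded most on chromosome X as well, with 24, 18 and 13 in the windows from 121000001, 120000001 and 122000001. Next came 8 on chromosome 14 from 52008275 to 52140662 and 8 on chromosome 3 from 86186569 to 86565630. In all, 21 windows with 5 or more Hoxa11 sites held 200 sites, and 142 of these were shared (71.0%, 64.2 to 77.2). Outside them 668 of 823 sites were shared (81.2%, 78.3 to 83.8). Such windows were set apart after their counts had been seen.

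Hoxa13 peaks were dense around Hoxa11 sites. Density was highest within 1 kb, where the overlapping peaks themselves count, with a smaller excess out to 10 kb. Around the 788 shared sites on chromosomes 1 to 19 and X, there were 59.3 Hoxa13 peaks per 100 kb within 1 kb, 14.7 at 1 to 5 kb, 11.4 at 5 to 10 kb, 8.54 at 10 to 20 kb and 7.27 at 100 to 200 kb. Being shared sets the first value. With the overlapping Hoxa13 peaks left out, density was 6.73 within 1 kb, 11.9 at 1 to 5 kb, 9.51 at 5 to 10 kb and 8.08 at 10 to 20 kb. At 100 to 200 kb it was 7.01. The peaks left out include those that overlapped a neighbouring Hoxa11 site, so this does not isolate the peak at the site itself. Over all sites, density within 10 kb was 2.35 times that at 100 to 200 kb, and 1.46 times with the overlapping peaks left out of the inner 10 kb. Hoxa13 peaks without a Hoxa11 site had flatter surroundings: other Hoxa13 peaks stood at 7.84 per 100 kb at 1 to 5 kb and 6.83 at 100 to 200 kb. Around Hoxa13 peaks with a Hoxa11 site these values were 16.0 and 7.31.

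The excess was smaller outside crowded windows. Outside the 21 windows, Hoxa13 peaks with a Hoxa11 site had 11.3 others per 100 kb at 1 to 5 kb and 7.15 at 100 to 200 kb, and those without a site 7.78 and 6.81. Around shared sites, without the overlapping peaks, the values there were 10.7 and 7.03. The sites without Hoxa13 changed more. All 205 of them on chromosomes 1 to 19 and X had 11.7 Hoxa13 peaks per 100 kb at 1 to 5 kb against 5.27 at 100 to 200 kb, but the 154 outside those windows had 7.06 against 5.52. Counted per site, shared sites had a median of 9 Hoxa13 peaks within 50 kb (quartiles 6 to 13, highest 31) and separate sites had 5 (3 to 10, highest 31). At 73 of the 205 separate sites no Hoxa13 peak lay within 10 kb, and at 13 none lay within 50 kb.

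**Figure D3:**
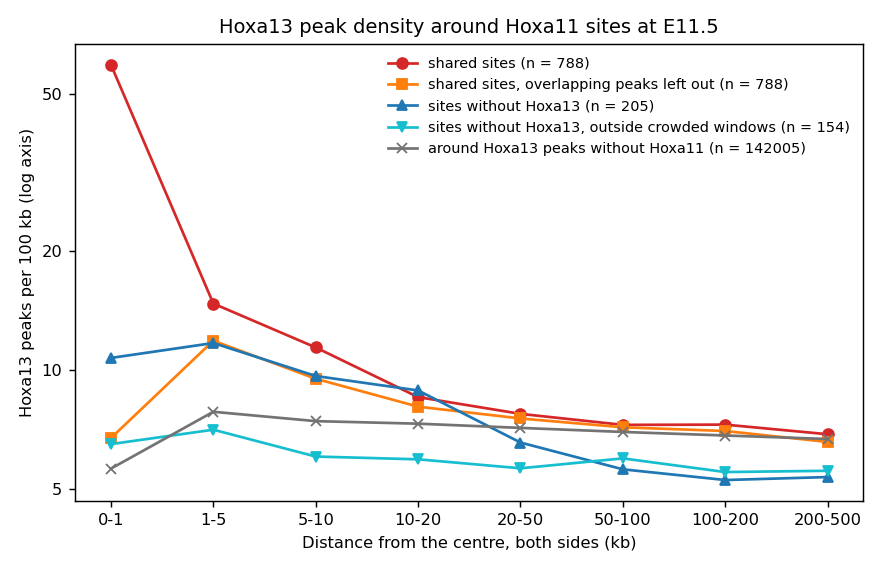
Hoxa13 peaks per 100 kb on a log axis, in rings of increasing distance in kb on both sides of each centre, on chromosomes 1 to 19 and X. Red circles show shared Hoxa11 sites, orange squares the same without the overlapping peaks, blue upward triangles sites without Hoxa13, cyan downward triangles the same outside windows of 5 or more sites, and grey crosses Hoxa13 peaks without Hoxa11; at 1 to 5 kb their values were 14.7, 11.9, 11.7, 7.06 and 7.84.

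Hoxa11 sites were more frequent where Hoxa13 was dense over a whole megabase. The 2424 windows of chromosomes 1 to 19 held a median of 54 Hoxa13 peaks (quartiles 37 to 74, highest 164). In 5 equal classes from few to many Hoxa13 peaks, the windows held 104, 147, 160, 202 and 294 Hoxa11 sites. The shared part was 60.6%, 79.6%, 75.6%, 82.2% and 87.8%, so the number of separate sites stayed between 30 and 41 in each class while shared sites went from 63 to 258. More Hoxa13 peaks in a window make a chance overlap more likely, and this was not tested. On chromosomes 1 to 19, the sites with most Hoxa13 peaks nearby had 25 within 50 kb. They were a pair on chromosome 3 (86188798 to 86189502 and 86189570 to 86190868) and 3 on chromosome 5, from 12441424, 13144750 and 81563123, all of them shared and 3.54-fold to 5.14-fold enriched.

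Windows of 1 Mb that hold genes with known roles in the limb were examined next. The files name no genes and no mm9 annotation was in hand, so the 35 windows of 31 loci were placed from general knowledge of that build, and a site in a window is not assigned to its gene. At least 1 Hoxa11 site lay in 26 of the 35 windows (74.3%), against 25.3% of all windows on chromosomes 1 to 19, and 13 (37.1%) held 2 or more, against 7.14%. The loci were chosen with earlier results of these data known, so this excess is no test of enrichment at limb genes. The excess was smaller by replicate: 33 of the 35 windows held a replicate 1 peak (94.3%), against 52.4% of all windows, and 29 a replicate 2 peak (82.9%), against 34.4%. Together the windows held 55 sites, of which 46 met Hoxa13 (83.6%), close to the 79.9% of all sites on chromosomes 1 to 19. In the list of replicate 1 alone they held 128 peaks, and in that of replicate 2 alone 75. Hoxa13 itself was not uniformly dense there: 18 windows had more peaks than the median window and 16 had fewer, from 19 to 161. Gene density and open chromatin, which differ between windows, were not measured.

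**Figure D4:**
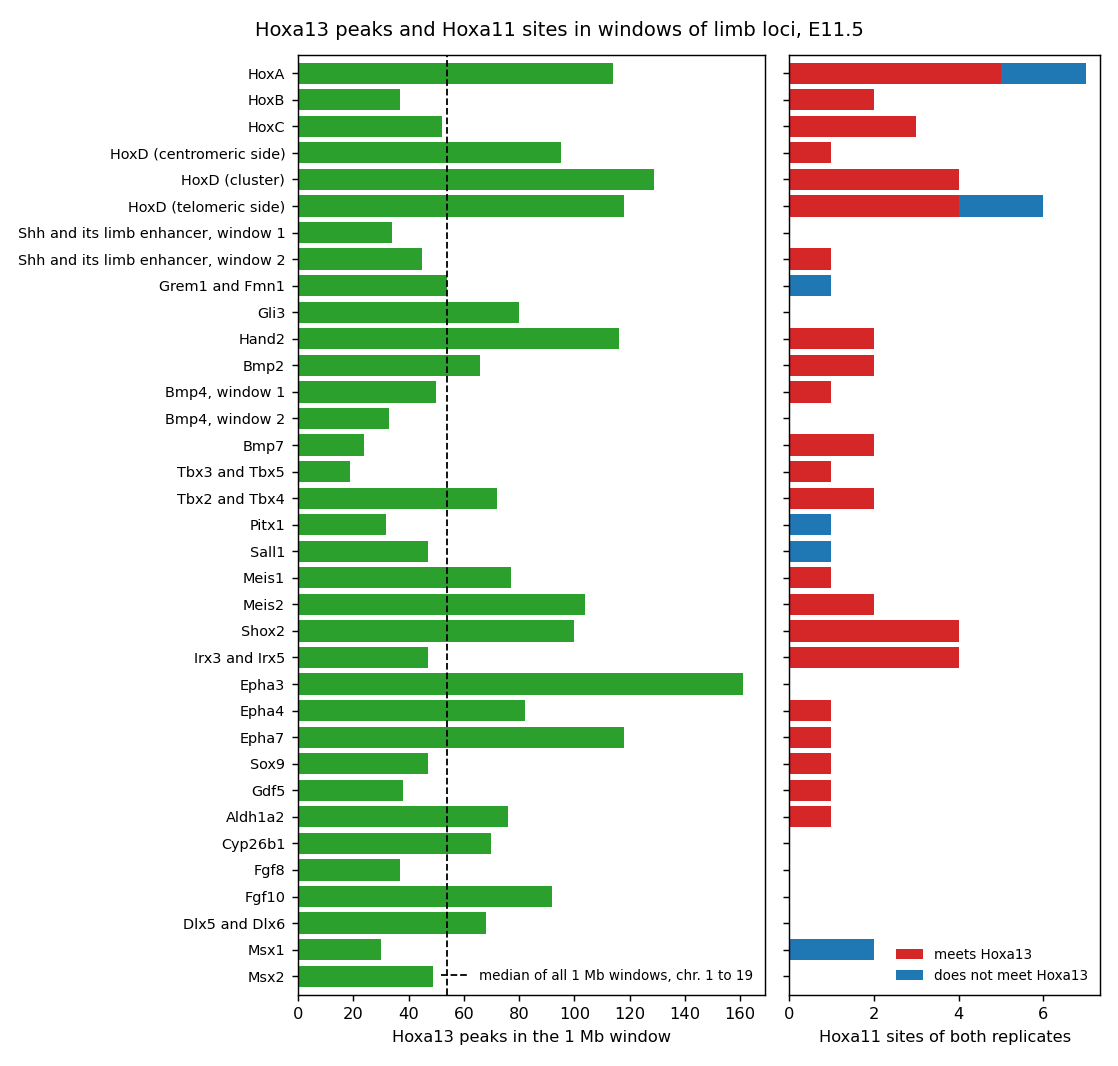
Counts in 35 windows of 1 Mb placed at 31 limb loci, at E11.5. Left, Hoxa13 peaks per window with a dashed line at the median of all windows of chromosomes 1 to 19 (54); right, Hoxa11 sites of both replicates that met Hoxa13 (red) or did not (blue), of which there were 46 and 9.

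The Hox clusters encode patterning factors of the limb axis. The 6 windows at the 4 clusters held 23 Hoxa11 sites, 19 of them shared, and 17 of the 23 lay in the HoxA window and a pair of HoxD windows. The HoxA window (chromosome 6 from 52000001 to 53000000) had 114 Hoxa13 peaks, more than in 96.8% of windows by mid-rank. It had 7 Hoxa11 sites, with 4 close together between 52150915 and 52181404. The strongest, from 52176071 to 52176864, was 5.80-fold enriched with its middle 84.0 bp from the Hoxa13 middle. Next to it, the site from 52180923 to 52181404 (2.70-fold) met no Hoxa13 peak and lay 1.95 kb from one. Farther along, the site from 52788265 to 52788712 (4.52-fold) was 28.0 bp from Hoxa13.

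The HoxD cluster window (chromosome 2 from 74000001 to 75000000) had 129 Hoxa13 peaks and 4 Hoxa11 sites, all shared. A pair lay from 74535107 to 74535634 (6.87-fold) and from 74536748 to 74537288 (3.99-fold), at 7 and 32 bp from Hoxa13 and with 21 Hoxa13 peaks within 50 kb. The sites from 74218811 to 74219338 (9.18-fold) and from 74976197 to 74976895 (11.6-fold) lay on opposite sides of that pair, 1.5 and 35 bp from Hoxa13. Digit enhancers of HoxD lie on the centromeric side of the cluster and forearm enhancers on the telomeric side. The next window on the centromeric side had 95 Hoxa13 peaks and 1 Hoxa11 site, from 73790328 to 73791017 (4.55-fold). The window on the telomeric side had 118 Hoxa13 peaks and 6 Hoxa11 sites, 4 of them shared, the strongest from 75332381 to 75332947 (8.23-fold). By replicate, the centromeric window held 4 peaks in replicate 1 and 1 in replicate 2, and the telomeric window 10 and 9. The difference between these windows was not tested. The limits of the cluster within its own window were not marked, so these counts do not stand for the whole digit and forearm enhancer regions.

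In the HoxC window (chromosome 15 from 102000001) Hoxa13 was near the median, with 52 peaks, yet all 3 Hoxa11 sites were shared and lay close together. They spanned 102828397 to 102828784 (4.61-fold), 102844833 to 102845401 (11.3-fold) and 102865577 to 102865933 (3.50-fold), with 13 to 19 Hoxa13 peaks within 50 kb. The HoxB window (chromosome 11 from 96000001) had 37 Hoxa13 peaks and both of its Hoxa11 sites were shared, from 96142916 to 96143478 (3.73-fold) and from 96180532 to 96180894 (4.74-fold).

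**Figure D5:**
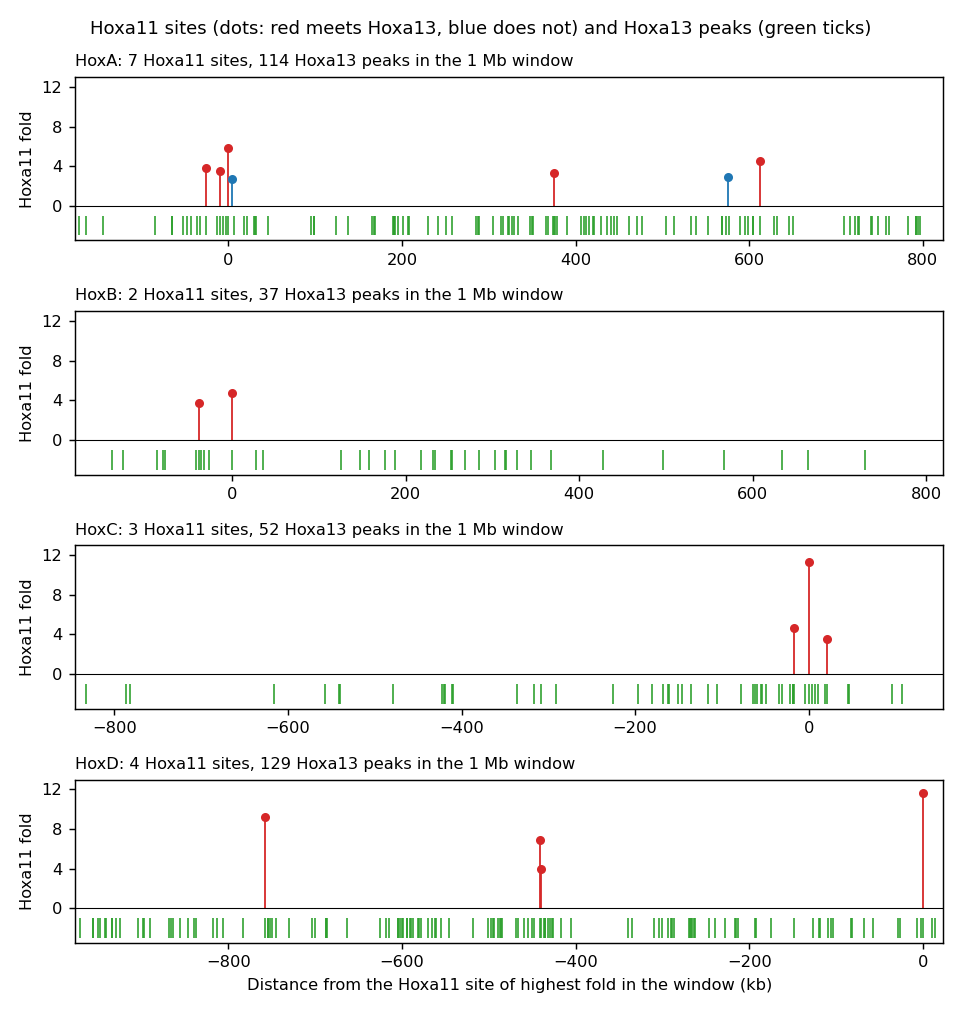
Hoxa11 sites as dots at their replicate 2 fold enrichment (red meets Hoxa13, blue does not) and Hoxa13 peaks as green ticks in the HoxA, HoxB, HoxC and HoxD windows of 1 Mb, against distance in kb from the Hoxa11 site of highest fold in each. The windows held 7, 2, 3 and 4 Hoxa11 sites and 114, 37, 52 and 129 Hoxa13 peaks, and the HoxC sites lay together while the HoxD sites were spread.

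At signalling loci, 6 of 11 windows held a Hoxa11 site, against 25.3% of all windows, and 7 of the 8 sites were shared, against 79.2% of all sites. These windows belong to the same chosen set, so the counts are no test of enrichment. Shh, the ligand of the posterior signalling centre, had no site in the window of the gene (34 Hoxa13 peaks). The next window, placed to hold the distant limb enhancer of Shh, had 1 site. It lay from 29794756 to 29795069 on chromosome 5 (4.70-fold, 12 bp from Hoxa13) and was not matched to the enhancer. The BMP ligand loci held shared sites only: Bmp2 had 2, the stronger from 133564660 to 133565086 on chromosome 2 (5.92-fold), Bmp4 had 1 and Bmp7 had 2. Of the Bmp4 windows, that on chromosome 14 from 47000001 held none, although each replicate had 1 peak there. The Bmp7 window was poor in Hoxa13, with 24 peaks. At Grem1, a BMP antagonist, and its neighbour Fmn1, the single site from 113337981 to 113338423 on chromosome 2 (4.35-fold) was 19.02 kb from Hoxa13. The growth factor loci Fgf8 and Fgf10 held no site of both replicates, although the Fgf10 window had 92 Hoxa13 peaks and 5 peaks in replicate 1. Aldh1a2, which makes retinoic acid, had 1 shared site (5.72-fold), and Cyp26b1, which degrades it, had none among 70 Hoxa13 peaks.

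Among the chosen windows outside the Hox clusters, those of Shox2 and of Irx3 and Irx5 held most sites, 4 each. Shox2, needed for the upper limb bones, had 4 shared sites and 100 Hoxa13 peaks. The strongest, on chromosome 3 from 66874127 to 66875569, was 10.6-fold enriched and 16.0 bp from Hoxa13, and that from 66548251 to 66548943 was 7.96-fold enriched. Irx3 and Irx5 also had 4 shared sites, but with 47 Hoxa13 peaks in the window. Their strongest, on chromosome 8 from 94203497 to 94204026 (6.19-fold), lay 4.50 bp from Hoxa13. Meis2, a marker of the proximal bud, had 2 shared sites among 104 Hoxa13 peaks and Meis1 had 1 among 77.

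Hand2, which acts upstream of Shh in the posterior bud, had 116 Hoxa13 peaks and 2 shared sites, one of them 9.67-fold enriched (chromosome 8 from 59188065 to 59188886). Gli3, the main Hedgehog-responsive factor of the anterior bud, had 80 Hoxa13 peaks and no site of both replicates. The window of Tbx3 and Tbx5 had the fewest Hoxa13 peaks of the 35, 19, yet 1 shared site of 8.16-fold (chromosome 5 from 120078542 to 120078942, 26.5 bp from Hoxa13). Tbx2 and Tbx4 had 2 shared sites. Pitx1, which marks the hindlimb, Sall1 and Msx1 held separate sites only, 1, 1 and 2 in number and 2.15 to 8.98 kb from Hoxa13. The windows of Msx2 and of Dlx5 and Dlx6 held none.

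Eph receptors, which sort limb cells by adhesion, and skeletal genes were the last groups. The Epha3 window had the most Hoxa13 peaks of all 35, 161, and no Hoxa11 site of both replicates, although replicate 1 had 4 peaks and replicate 2 had 3. Epha4 and Epha7 had 1 shared site each among 82 and 118 Hoxa13 peaks. Sox9, the master factor of cartilage, had 1 shared site of 5.36-fold (chromosome 11 from 112875532 to 112876132) with 2 Hoxa13 peaks within 50 kb. Gdf5, a joint marker, had 1 of 4.11-fold with 3.

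Hoxa13 peaks at Hoxa11 sites were wide ones. Their median width was 523 bp (quartiles 382.5 to 749), against 286 bp (239 to 348) for the 142609 others. Over 10 equal classes of Hoxa13 width, the share with a Hoxa11 site was 0.0906% in the narrowest (13 of 14346) and 0.0767% in the next. It was 0.286% in the eighth, 0.816% in the ninth and 3.75% in the widest (538 of 14346, 3.45 to 4.07). Among the 1000 widest peaks it was 17.8%, and among the 100 widest, all of at least 1357 bp, 53.0% (42.8 to 63.1). A wider peak offers more sequence to meet, and the part of width in this order was not tested. These shares include crowded windows, whose part among the 1000 and 100 widest peaks was not tested. In the widest class, the peaks used for neighbour counts were 516 with a Hoxa11 site and 13741 without. Outside crowded windows they were 420 and 13575. Peaks with a site were lost in larger proportion, which follows from defining crowded windows by Hoxa11 sites. Within the widest class alone, Hoxa13 peaks with a Hoxa11 site had 16.9 other Hoxa13 peaks per 100 kb at 1 to 5 kb, and those without a site 9.43. Outside crowded windows these values were 12.3 and 9.35.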

How the data were processed

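Peak lists of Hoxa11 (replicates 1 and 2) and Hoxa13 ChIP-seq at E11.5 were compared. The submitters' processing notes name the mouse build mm9 and, with no roles, MACS2 2.1.0, Bowtie2 2.2.2 and CASAVA 1.4. Their settings and the use of input are not given in the sources used here. The authors deposited chromosome, start and end only for Hoxa13 and Hoxa11 replicate 1. For replicate 2 the deposited columns also give a score, a fold enrichment (a linear ratio), −log10 p- and q-values and a summit, all the authors' own. Read depth is unknown, and the number of peaks does not give it. Where the labels name no separate litters, the spread between Hoxa11 replicates may be technical.

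Overlaps, nearest middles, rings and windows of 1 Mb were computed with Python 3.11.15, numpy 2.4.6, pandas 2.3.3 and scipy 1.17.1. They were tested on simulated lists and recounted with bedtools. Positions are 1-based in mm9. A site's fold is the highest of its replicate 2 peaks. A window belongs to a site by its middle, and windows of 5 or more Hoxa11 sites were called crowded after the data were seen. The planned removal of dense Hoxa13 windows took none, as no window exceeded the bound of 190 peaks. No sequence is printed, since no mm9 genome was used here. Named sites are the 10 of highest fold, shared and separate, the 5 with most Hoxa13 peaks within 50 kb, the 5 farthest from Hoxa13, up to 3 of highest fold per locus, and the 5 windows richest in each kind. A few more sites of the HoxA and HoxD windows were named after their values were seen. Members, lists and loci were chosen with earlier results of these data known.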

Additional observations from a re-analysis of the deposited data

How the results depend on the processing

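No paired analysis was possible because the Hoxa13 library carries no replicate number and there is only 1 of it. Of 47 alternatives, 0 turned a direction, 17 stayed within the spread of the 2 replicates (within 1.5 times for the locus count) and 30 did not. Shares, median distances and the locus count cannot change sign. The 0 therefore speaks only for the density ratio and for the width and fold differences. Fold exists for 1 replicate, so any change in it counts. The share of Hoxa11 sites that met Hoxa13 (79.2%) was 67.2% when at least 50% of both intervals had to overlap, 75.95% with the site's middle inside the Hoxa13 peak, 84.1% when gaps of up to 1000 bp counted, 72.0% with the wider 50% of Hoxa13 peaks, 79.9% on chromosomes 1 to 19, 84.3% in the upper 50% of sites by score, and 81.2% outside crowded windows. With 1 replicate left out it was 70.8% to 71.0%. The share of Hoxa13 peaks that met a site (0.593%) was 1.06% for the wider 50% of Hoxa13 peaks, and 0.803% to 1.46% with 1 replicate left out. The median distance (51.5 bp) was 61.5 bp from the summit, and 49.5 to 62.5 bp with 1 replicate left out. The density ratio (2.35) was 2.86 with the wider 50% of Hoxa13 peaks, 1.91 on chromosomes 1 to 19, 1.91 outside crowded windows, 3.08 within 5 kb, 1.46 without overlapping peaks and 2.02 to 2.31 with 1 replicate left out. The width difference (237 bp) was 206 bp with the wider 50% of Hoxa13 peaks, 225 bp on chromosomes 1 to 19, 218 bp under 50% overlap and 187 to 202.5 bp with 1 replicate left out. The fold difference (0.624) was 0.670 under 50% overlap, 0.758 among matched peaks, 0.483 on chromosomes 1 to 19, 0.489 with the wider 50% of Hoxa13 peaks and 0.512 outside crowded windows. The locus count (55) was 75 to 128 with 1 replicate left out. The causes of these moves were not tested. The Hoxa13 list holds no score, so its stricter version rests on width. Read depth is unknown, so a site absent from a list may lie below detection.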

Other observations

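Hoxa11 peaks found in 1 replicate alone also lay at Hoxa13 peaks. Of the 1897 peaks of replicate 1 without a partner in replicate 2, 66.7% met Hoxa13 (64.5 to 68.8), and of the 583 of replicate 2 without a partner 55.9% did (51.8 to 59.99). Where they met, the middles were a median of 47.5 bp apart in replicate 1 and 73.25 bp in replicate 2. Around the unmatched peaks, Hoxa13 density at 1 to 5 kb was 9.21 peaks per 100 kb for replicate 1 and 12.1 for replicate 2, against 6.66 and 6.44 at 100 to 200 kb. In replicate 2 the authors' fold had a median of 3.62 over unmatched peaks with Hoxa13 and 3.32 over those without, a smaller gap than among matched peaks (4.34 and 3.59). The difference between these gaps was not tested.

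Hoxa13 peaks near but not at a Hoxa11 site numbered 1645 within 10 kb, and with the 851 that met a site they made up 1.74% of all Hoxa13 peaks.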
